A study of Mus musculus with 2 samples.

Results

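The proteasome subunits and regulators of mouse Th17 cells were examined in 2 RNA-seq libraries as the genes whose symbols begin with Psma to Psmg followed by a digit. The pattern took 50 of 15574 listed gene symbols, and all 50 had reads in both libraries. Of these, 48 encode parts, activators, inhibitors or assembly factors of the proteasome. The other 2 share only the symbol pattern or the sequence: Psmc3ip encodes a partner of meiotic recombinases and Psme2b is an intronless copy of Psme2. T helper 17 (Th17) cells are CD4 T cells known for secreting IL-17. They were raised from naive T cells of the C57BL/6 strain over 6 days with IL6, TGFb, IL1b and IL23, and then stimulated for 4 h through plate-bound CD3. The library labelled CREB KO and the wildtype library shared this background, culture and stimulation and differed in the labelled genotype. CREB is a transcription factor that answers cyclic AMP, and the comparison asks which Th17 genes it regulates. How, and in which cells, CREB was deleted is not stated by the labels.

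The proteasome degrades proteins tagged with ubiquitin. Its 20S core is a barrel of stacked rings, with outer rings of alpha subunits that gate entry and inner rings of beta subunits that hold the proteolytic sites. The 19S cap binds ubiquitin, removes it and unfolds the substrate with a ring of ATPases. Lymphocytes and interferon-treated cells exchange the catalytic subunits beta1, beta2 and beta5 for beta1i, beta2i and beta5i, which gives the immunoproteasome and changes the peptides made for MHC class I. Other activators, PA28 and PA200, can cap the core in place of 19S, and PI31 and a set of chaperones act on its assembly or activity.

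Counted reads numbered 23938112 for the library labelled CREB KO and 26525471 for wildtype. With 1 library per genotype there was no replicate error and no test, and each difference lies between these libraries. Ratios are always the library labelled CREB KO over wildtype, and paired values give that library first and wildtype second. The 95% intervals in parentheses (exact conditional binomial) cover counting error only, and PCR reads without molecular identifiers are not independent molecules. The targeted gene did not bear out the label. Creb1 had 25 reads in the library labelled CREB KO and 13 in the wildtype library, a ratio of 2.09 (1.05 to 4.53). Its mean was 0.767 CPM (counts scaled to a common library size), under the limit of 1 CPM used below for a measured gene. Creb1 has 3 curated RefSeq transcripts, and the part of transcript number in its count was not tested. Its reads were too few to judge the label either way. Whether those reads fall outside the deleted part is not known. Of the Th17 markers, the cytokine genes Il17a and Il17f had 6981 and 13041 reads against 13093 and 39898 in wildtype, and the receptor gene Il23r had 517 against 817. The T cell markers Cd3e, Cd4 and Lck summed to 1273 and 1315 CPM. The B cell markers reached 1.17 and 1.06 CPM, with Ms4a1 unlisted, and the CD8 markers 9.77 and 8.94 CPM, with Cd8a unlisted. Myeloid markers summed to 8.52 and 9.62 CPM, nearly all Cd68, with Lyz2 unlisted, and no NK marker was listed. Their part in the results below was not tested. In such bulk samples, fewer cells of a type and less RNA per cell cannot be told apart.

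Promoter windows are shown for the beta5 and beta1 pairs of catalytic subunits, because CREB acts at promoters and these subunits are the ones that define the immunoproteasome. Each window runs from 250 bases before to 50 bases after a RefSeq start site of the gene (GRCm38.p6), 5′ to 3′ on the strand of the gene. For Psmb8 and Psmb9 the window lies wholly inside the gene as annotated by GENCODE. The sequence before the GENCODE start of these genes was not searched. Capitals mark TGACG, the 5-base core of the cyclic AMP response element, on either strand (CGTCA on the other), and TGACNNNGC, the core of the antioxidant response element. Further searches, not in capitals, were for the full cyclic AMP response element, the NF-Y box CCAAT and GAAANNGAA, a stretch of the interferon-stimulated response element. Both strands were searched.

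Psmb5 (chr14:54617946-54618245, minus strand): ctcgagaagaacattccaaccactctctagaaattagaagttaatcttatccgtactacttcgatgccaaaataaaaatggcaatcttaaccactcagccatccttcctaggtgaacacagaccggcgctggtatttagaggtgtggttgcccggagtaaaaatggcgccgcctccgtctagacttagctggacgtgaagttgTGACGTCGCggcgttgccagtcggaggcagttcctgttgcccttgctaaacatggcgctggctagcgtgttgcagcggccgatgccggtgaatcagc

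Psmb6 (chr11:70525107-70525406, plus strand): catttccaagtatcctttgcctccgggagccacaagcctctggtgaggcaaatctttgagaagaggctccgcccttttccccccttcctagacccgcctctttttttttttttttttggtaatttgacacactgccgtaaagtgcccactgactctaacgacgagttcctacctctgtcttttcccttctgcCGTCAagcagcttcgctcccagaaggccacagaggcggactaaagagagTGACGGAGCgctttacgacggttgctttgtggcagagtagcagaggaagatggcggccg

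Psmb8 (chr17:34197945-34198244, plus strand): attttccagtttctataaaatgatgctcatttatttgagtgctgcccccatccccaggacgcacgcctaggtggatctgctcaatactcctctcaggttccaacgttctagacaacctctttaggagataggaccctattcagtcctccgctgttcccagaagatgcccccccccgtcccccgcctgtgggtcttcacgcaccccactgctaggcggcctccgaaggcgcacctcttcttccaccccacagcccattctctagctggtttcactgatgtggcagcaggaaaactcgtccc

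Psmb9 (chr17:34187281-34187580, minus strand): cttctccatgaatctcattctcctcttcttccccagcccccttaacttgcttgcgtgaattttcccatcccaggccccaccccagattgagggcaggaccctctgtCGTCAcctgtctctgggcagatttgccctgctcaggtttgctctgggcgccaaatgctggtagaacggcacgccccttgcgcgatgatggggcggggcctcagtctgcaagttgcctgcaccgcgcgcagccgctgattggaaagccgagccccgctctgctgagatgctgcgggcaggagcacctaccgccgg

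In these windows the constitutive genes Psmb5 and Psmb6 carry TGACGTCGC and TGACGGAGC, in which TGACG and the antioxidant core overlap, starting at positions -47 and -9 from the start site. Psmb6 has a further CGTCA at -58. Psmb9 has CGTCA at -144 and ATTGG, the NF-Y box on the other strand, at -8, and the Psmb8 window has none of the searched motifs. Windows were found for 42 of the 50 members, among them Psmb10 but not Psmb7. The full 8-base cyclic AMP response element TGACGTCA was in 0 of these 42, against 3.88% of the 1699 genes of 100 CPM or more that had a window. TGACG on either strand was in 19 of 42 members (45.2%), against 40.8% of the same genes, and it is also part of the full element. It was found in 7 of 11 constitutive 20S core genes and 6 of 14 genes of the 19S cap. The antioxidant core TGACNNNGC, which the proteasome regulators NFE2L1 and NFE2L2 read, was in 6 of 42 members (14.3%), against 18.5%. The NF-Y box CCAAT was in 15 of 42 (35.7%), against 42.1%. GAAANNGAA was in 7 of 42 (16.7%), against 7.77%, and in the window of Psme1 but in none of those of the 3 immunoproteasome genes. Like those of Psmb8 and Psmb9, the Psme1 window lies wholly inside the gene as annotated by GENCODE. This also holds for further members, among them Psmd5, Psmd9, Psmd13 and Psmf1, so the shares include windows after the annotated start. Over all 27025 genes with a window the shares were 2.03% for the full element, 23.1% for TGACG, 13.99% for the antioxidant core, 41.1% for CCAAT and 9.76% for GAAANNGAA. These matches describe letters in a window and do not show binding.

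The proteasome was abundant in both libraries. Its members took 197441 reads (0.825% of all) in the library labelled CREB KO and 225109 (0.849%) in the wildtype library. Of the 50, 47 reached a mean of 1 CPM (measured, from here on), 44 reached 10 CPM and 32 reached 100 CPM. The 3 below 1 CPM were Psma8, the testis form of alpha4, with 2 reads in each library, Psmb11, the catalytic subunit of cortical thymic epithelium, with 4 and 9, and Psme2b with 11 and 8. These 3 genes are known from other tissues or as a copy, and their reads were too few for a direction. Levels of different genes are compared per length, as reads per kilobase of annotated exon scaled to library depth (RPKM).

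The constitutive 20S core stood high and the chaperones low. The 7 alpha subunits had a median of 69.9 RPKM in the library labelled CREB KO and 73.0 in wildtype, the 7 constitutive beta subunits 115 and 114. Within the alpha ring, Psma6 (alpha1) was highest, with 133 and 144 RPKM, and Psma3 (alpha7) lowest, with 46.8 and 48.2. By the longest or the curated transcript, Psma4 (alpha3) was highest (248 and 266) and Psma3 still lowest. Within the beta ring, the structural subunit Psmb2 (beta4) was highest, with 248 and 246 RPKM. Subunits that are present in equal number in the assembled core thus differed several-fold in messenger RNA per length. By the exon length used here, the order within each ring was the same in both libraries. The lowest non-catalytic beta gene was Psmb1 (beta6), with 65.2 and 60.6 RPKM. Of the catalytic genes, Psmb5 (beta5, chymotrypsin-like; chromosome 14, 54614119 to 54618022, GRCm38) had 161 and 172 RPKM, Psmb6 (beta1, caspase-like) 109 and 110, and Psmb7 (beta2, trypsin-like) 49.0 and 52.3. By the other lengths Psmb6 was above Psmb5, and Psmb7 stayed lowest.

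In the 19S cap the median of the ATPases was above that of the lid, and a pair of base subunits was far below its partners. The 6 ATPases had a median of 112 and 115 RPKM, with Psmc2 lowest (39.6 and 41.0). Psmc4 (130.4 and 130.8) and Psmc5 (125.4 and 131.1) were the highest in the library labelled CREB KO and in wildtype, respectively. This order depended on length: by the curated transcript Psmc6 was lowest (66.3 and 71.6) and Psmc4 highest, and by the longest Psmc3 was highest (166 and 171). Next came the lid, whose 8 subunits had a median of 58.1 and 59.7 RPKM, from Psmd11 (20.7 and 22.2), which helps to hold the cap on the core, to Psmd8 (136 and 137). Psmd14, the lid enzyme that removes ubiquitin, had 50.3 and 51.5. The scaffold gene Psmd1 (Rpn2) had 7130 and 8209 reads, or 41.0 and 42.6 RPKM. Its base partners Psmd2 (Rpn1) and Psmd4 (Rpn10), both of which recruit substrates, had only 200 and 258 reads (2.07 and 2.41 RPKM) and 555 and 633 reads (8.25 and 8.50 RPKM). They were the lowest genes of the core and the cap in both libraries.

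Among the activators the same contrast was larger. Psme1 and Psme2 encode the alpha and beta subunits of PA28, which assemble into a common ring and are neighbours on chromosome 14 (55578123 to 55581529 and 55587441 to 55591113). Psme1 had 9391 reads in the library labelled CREB KO and 10219 in wildtype (178 and 174 RPKM), and Psme2 had 71 and 83 (1.68 and 1.77 RPKM). Psme2 was 106-fold below Psme1 per length in the library labelled CREB KO and 98.3-fold below it in wildtype. By the longest transcript it was 64.1-fold and 59.6-fold below, and by the curated one 114-fold and 107-fold. Psme3, which encodes the nuclear PA28gamma, had the most reads of all members, 11585 and 14208 (164 and 182 RPKM). Psme4 (PA200) had 8.52 and 9.69 RPKM and the PI31 gene Psmf1 12.03 and 13.1.

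Assembly factors were low. Of the 19S chaperones, Psmd5 had 8.85 and 9.58 RPKM, Psmd9 8.02 and 8.29, and Psmd10 (gankyrin) 6.28 and 6.03. Of the 20S chaperones, which order the alpha ring, Psmg3 was lowest, with 11.1 and 10.8 RPKM. Psmg4 (27.8 and 25.3) and Psmg2 (26.4 and 27.6) were the highest in the library labelled CREB KO and in wildtype, respectively. By the curated transcript, Psmg4 was the lowest and Psmg2 the highest (43.3 and 45.2) in both libraries. Psmc3ip, outside the proteasome, had 479 and 587 reads, a ratio of 0.904 (0.799 to 1.02).

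**Figure D1:**
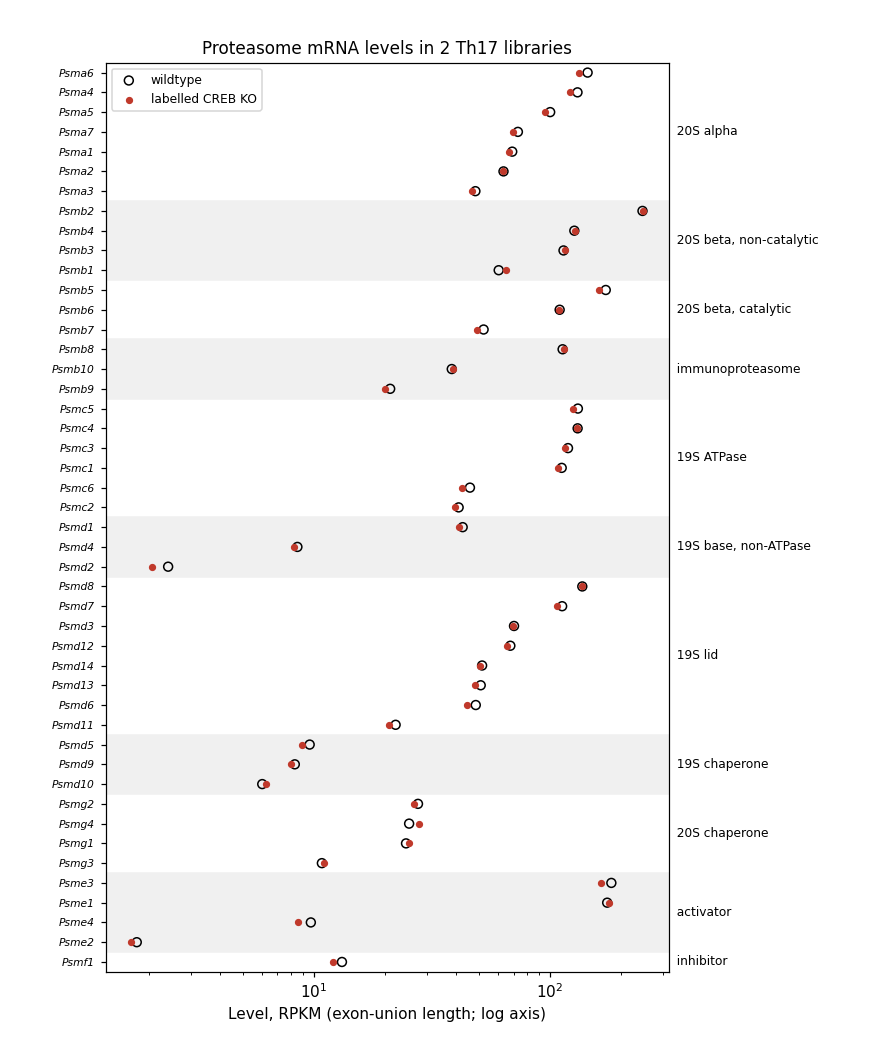
Level of each measured proteasome gene in RPKM (log axis) in the library labelled CREB KO (filled red) and wildtype (open circles), by class and sorted within it by the wildtype level; each point is 1 library. The symbols nearly coincide for every gene. Psme2 (1.68 and 1.77) and Psmd2 (2.07 and 2.41) are the lowest of their classes, and Psmd4 (8.25 and 8.50) lies far below Psmd1 (41.0 and 42.6).

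The levels were set beside the number of curated transcripts and the sequence shared with other genes. Of the 5 lowest measured proteasome genes in wildtype, Psme2, Psmd2, Psmd10 and Psmd4 each have 2 curated RefSeq transcripts, while Psmd9 (8.29 RPKM) has 1. Psme4 (9.69 RPKM) also has 1. The 13 measured proteasome genes with 2 or more had a wildtype median of 13.1 RPKM, against 70.3 for the 33 with 1. Psma3, Psma6, Psma7 and Psmc2 also have 2 or more and had 41.0 to 144 RPKM. Over the core, the immunoproteasome and the cap, the medians were 44.6 RPKM for 6 genes with 2 or more and 85.2 for 28 genes with 1. For Psme2, 59.3% of the 50-base windows of its transcript also occur in annotated transcripts of other genes, most often Psme2b. Psmb5 (57.1%), Psmb3 (55.8%) and Psma5 (55.4%) had similar shares and 3004 or more reads in each library. For Psmd4, Psmd10 and Psme4 the share was 0, for Psmd9 0.667% and for Psmd2 26.4%. The part of transcript number and of shared sequence in these levels was not tested.

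**Figure D2:**
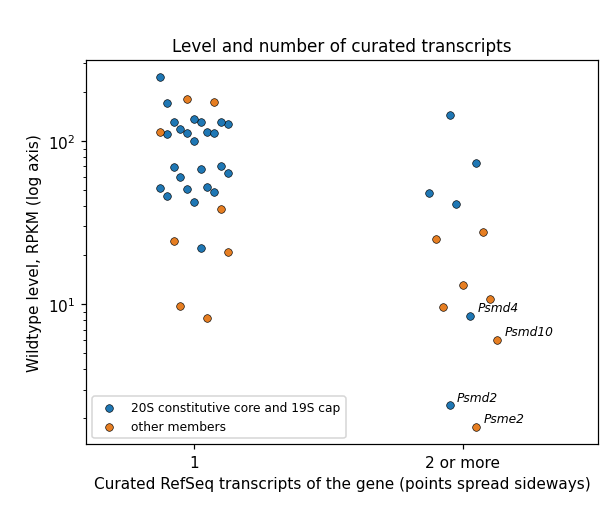
Wildtype level in RPKM (log axis) of the 46 measured proteasome genes by the number of curated RefSeq transcripts, with points spread sideways for visibility; blue marks the constitutive 20S core and 19S cap, orange the other members. Genes with 2 or more transcripts reach from 1.77 to 144 RPKM, with Psme2, Psmd2, Psmd10 and Psmd4 at the low end.

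Between the libraries, no measured proteasome gene was 1.2-fold apart. At that fold with an interval that excludes 1, 0 of 47 measured members were lower and 0 were higher. Of all 10462 measured genes, 5.20% were lower and 6.41% higher by this rule, and of the 2162 genes of 100 CPM or more, where 32 members lie, 0.971% and 1.25%. The ratios of members ran from 0.859 for Psmd2 to 1.098 for Psmg4. Their median was 0.965, against 0.999 over all measured genes and 0.993 over those of 100 CPM or more. The log2 ratios of the 32 members of 100 CPM or more had an SD of 0.0530, against 0.121 for all genes of that level. Counting alone gives a median SD of 0.0277 for those members.

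Small ratios below 1 were the more frequent direction. Of the 46 measured proteasome genes, 35 had a ratio below 1 and 11 above (31 below with upper-quartile scaling). Counting Psmc3ip as well, 36 of 47 members had a ratio below 1, against 50.3% of all measured genes, and 26 of the 32 members of 100 CPM or more did, against 54.6% of genes of that level. An interval wholly below 1 was found for 17 of 47 members, against 18.3% of all measured genes, and for 14 of 32, against 32.1%. An interval wholly above 1 was found for Psmb1 alone, against 17.3% and 26.0%. With counts this high a shift of a few percent leaves such an interval, and it does not set a gene apart from the spread between these libraries.

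The ratios of the alpha ring lay a little below 1. Of the 7 alpha subunits, 4 had an interval below 1, against 32.1% of genes of 100 CPM or more. All 7 had a ratio below 1 (6 of 7 with upper-quartile scaling), against 54.6% of those genes. The median ratio of the alpha subunits was 0.957. Psma6 had the lowest, with 3935 reads against 4716 and a ratio of 0.924 (0.885 to 0.964). Psma2 (alpha2) had the highest, with 5558 against 6180 reads and 0.996 (0.960 to 1.03). Their summed reads gave 0.956 (0.942 to 0.970).

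The beta ring did not move as a block. The 4 non-catalytic subunits had ratios from 1.002 to 1.08, and stayed above 1 under every scaling tried. Of the 2162 genes of 100 CPM or more, 981 had a ratio above 1. Psmb1 had 7171 reads against 7378 and a ratio of 1.08 (1.04 to 1.11), while Psmb4 (beta7) had 5930 against 6550 and 1.002 (0.968 to 1.04). The 3 constitutive catalytic subunits had ratios below 1, except Psmb6 with upper-quartile scaling, at 1.003. Psmb5 had 3473 reads against 4101 and a ratio of 0.938 (0.896 to 0.981), and Psmb7 had 4017 against 4741 and 0.938 (0.899 to 0.979). Psmb6 had 4895 against 5447 reads and 0.995 (0.957 to 1.03). The ratios of the alpha subunits and the non-catalytic beta subunits of the same core thus lay on opposite sides of 1, by less than 1.1-fold in each gene. However, the intervals of 3 of the 4 non-catalytic beta genes and 3 of the 7 alpha genes hold 1. No direction can be given for those genes, and Psma2 was at 1.004 with upper-quartile scaling. Whether the classes differ was not tested.

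All 17 subunits of the 19S cap had a ratio below 1 (15 of 17 with upper-quartile scaling). Among genes of 100 CPM or more, the share below 1 was 54.6%. The cap subunits had a median ratio of 0.963. Their summed reads gave 0.966 (0.957 to 0.976), and 7 of the 17 intervals lay below 1, against 32.1% of all genes of 100 CPM or more. Among the ATPases, Psmc6 was lowest, with 3549 against 4243 reads, at 0.926 (0.886 to 0.969), and Psmc4 highest, with 6754 against 7500 and 0.997 (0.965 to 1.03). In the lid, Psmd6 had 2992 against 3595 reads and 0.922 (0.878 to 0.968), and Psmd8 had 9942 against 11093 and 0.992 (0.966 to 1.02). The base scaffold Psmd1 was at 0.962 (0.932 to 0.993). The sparse counts of Psmd2 and Psmd4 gave 0.859 (0.710 to 1.04) and 0.971 (0.865 to 1.09), which hold 1.

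**Figure D3:**
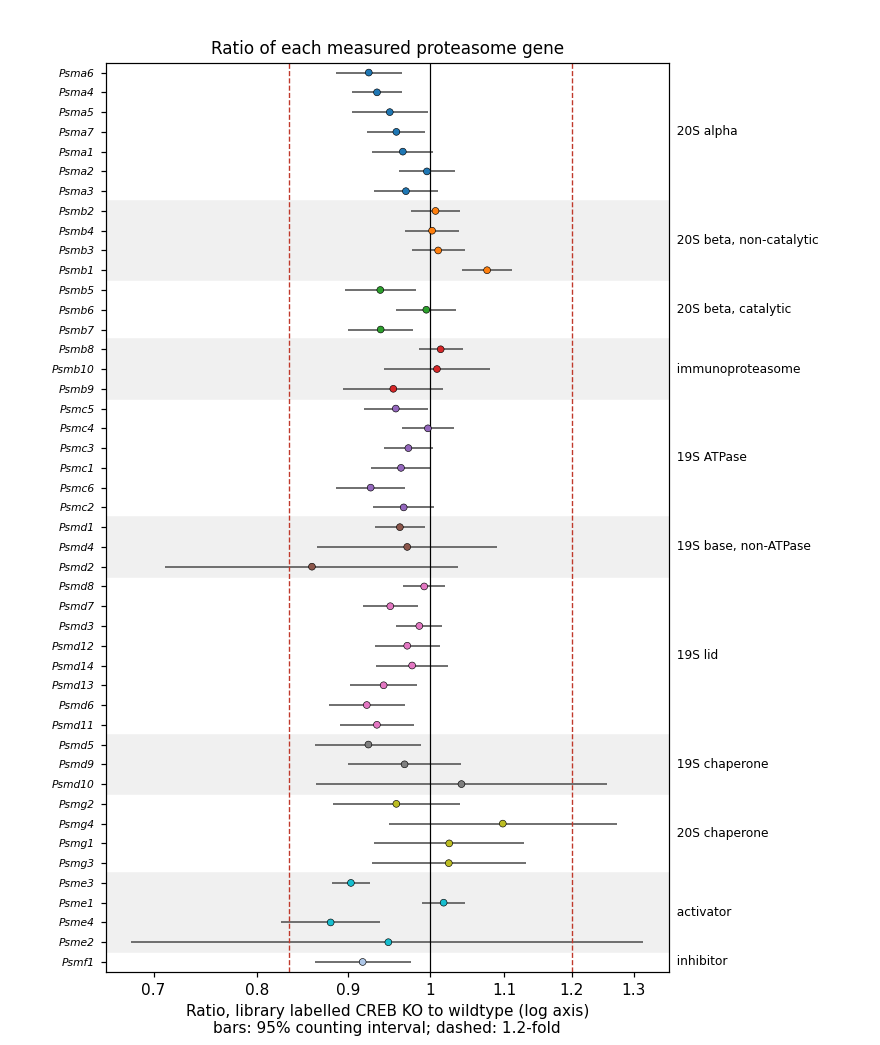
Ratio of the library labelled CREB KO to wildtype (log axis) for each of the 46 measured proteasome genes, by class; points are ratios of 1 library to 1 library, bars are 95% counting intervals and dashed lines mark 1.2-fold. All points lie between the dashed lines, the 17 cap genes lie at or left of 1, and Psmb1 at 1.08 is the only gene whose bar lies wholly to the right of 1.

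The activators and the inhibitor held several of the lower ratios. Psme3 had 11585 reads against 14208 and a ratio of 0.903 (0.881 to 0.925), the lowest of the 32 members of 100 CPM or more. Psme4 had 1711 against 2154 reads and 0.880 (0.825 to 0.938), and Psmf1 had 1856 against 2242 and 0.917 (0.861 to 0.975). Psme1 was at 1.02 (0.989 to 1.05) and Psme2 at 0.947 (0.680 to 1.32). Read for read, Psme3 to Psme1 was 1.23 in the library labelled CREB KO and 1.39 in wildtype, a ratio of ratios of 0.887 (0.855 to 0.921) that does not depend on scaling. The nuclear PA28gamma transcript was thus lower relative to the PA28alpha transcript, by less than 1.2-fold.

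The assembly factors went both ways. Of the 19S chaperones, Psmd5 was at 0.923 (0.862 to 0.989), Psmd9 at 0.968 (0.900 to 1.04) and Psmd10, on 221 against 235 reads, at 1.04 (0.863 to 1.26). Of the 20S chaperones, Psmg2 was at 0.957 (0.882 to 1.04), and Psmg4, with 369 against 372 reads, was at 1.098 (0.948 to 1.27). Psmg1 and Psmg3 were at 1.02 (0.9303 to 1.13) and 1.02 (0.927 to 1.13). Apart from that of Psmd5, these intervals hold 1.

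**Figure D4:**
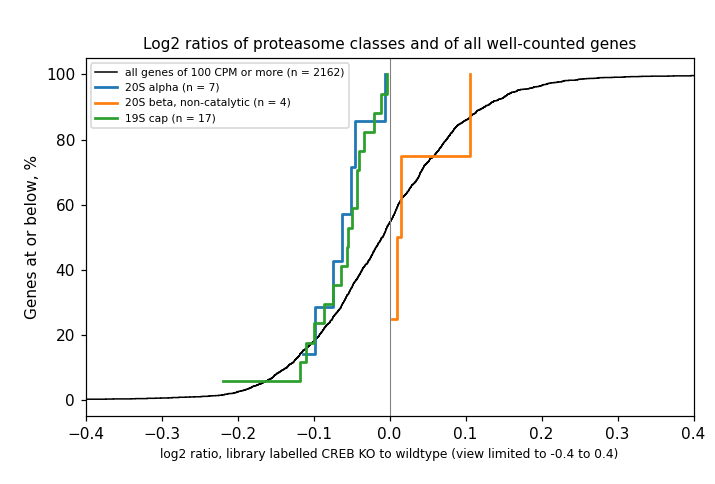
Cumulative share of genes (%) by log2 ratio for the 20S alpha subunits, the non-catalytic 20S beta subunits, the 19S cap and all 2162 genes of 100 CPM or more; the view ends at 0.4 on either side. The alpha and cap lines end left of 0, the beta line begins right of 0, and the classes sit inside the range of all genes.

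The immunoproteasome was expressed in both libraries at similar levels. Psmb8 (beta5i; chromosome 17, 34197721 to 34201454) had 9270 reads in the library labelled CREB KO and 10126 in wildtype (114 and 113 RPKM), a ratio of 1.014 (0.985 to 1.04). Psmb9 (beta1i; chromosome 17, 34181987 to 34187764) had 1756 and 2039 reads (20.04 and 21.01 RPKM), a ratio of 0.954 (0.894 to 1.02). Psmb10 (beta2i; chromosome 8, 105935735 to 105938444) had 1578 and 1732 reads (38.6 and 38.3 RPKM), a ratio of 1.009 (0.942 to 1.08). The 3 intervals hold 1, and no direction can be given for these genes. The order of the levels, Psmb8 above Psmb10 above Psmb9, was the same in both libraries. The order of the lower pair depended on the length used, since by the length of the curated transcript Psmb9 (56.9 RPKM in wildtype) lay above Psmb10 (49.8).

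Each immunoproteasome subunit was set against the constitutive subunit it replaces. Psmb8 took 72.7% (72.0 to 73.5, exact binomial) of the reads of Psmb8 and Psmb5 in the library labelled CREB KO and 71.2% (70.4 to 71.9) in wildtype. Psmb9 took 26.4% (25.3 to 27.5) and 27.2% (26.2 to 28.3) of the reads of its pair with Psmb6, and Psmb10 28.2% (27.03 to 29.4) and 26.8% (25.7 to 27.9) of its pair with Psmb7. The beta5 position was thus the only one of the 3 at which the immunoproteasome gene had the more reads. Per exon length, Psmb8 to Psmb5 was 0.710 and 0.657, Psmb9 to Psmb6 0.183 and 0.191, and Psmb10 to Psmb7 0.788 and 0.733. The first of these passes 1 by the length of the curated transcript (1.47 and 1.36), so which gene of the beta5 pair is higher per length depends on the length used. The exon union of Psmb8 overlaps exons of another annotated gene over 14.7% of its length, and that of Psmb5 over 12.1%. Of the 50-base windows of the Psmb8 transcript 5.83% also occur in transcripts of other genes, against 57.1% for Psmb5. This share was 12.5% for Psmb9 and 2.67% for Psmb6, and 0 for Psmb10 and 28.1% for Psmb7. The part of shared sequence in these pairs was not tested.

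The ratio of ratios between libraries depends on neither length nor scaling. It was 1.08 (1.02 to 1.14) for Psmb8 to Psmb5, 0.958 (0.889 to 1.03) for Psmb9 to Psmb6 and 1.08 (0.992 to 1.17) for Psmb10 to Psmb7. For the 3 pairs summed it was 1.046 (1.011 to 1.083), from 12604 immunoproteasome and 12385 constitutive reads in the library labelled CREB KO and 13897 and 14289 in wildtype. The beta5 pair and the sum exclude 1 by counting error, with differences of under 1.1-fold and no replicate to set them against.

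**Figure D5:**
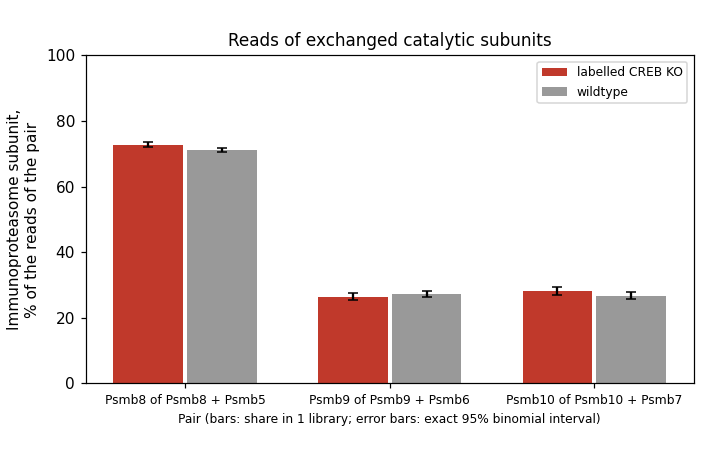
Share of reads (%) that the immunoproteasome subunit takes of each pair with its constitutive partner, in the library labelled CREB KO (red) and wildtype (grey); bars are 1 library each and error bars are exact 95% binomial intervals. Psmb8 takes 72.7% and 71.2%, and Psmb9 and Psmb10 between 26.4% and 28.2%.

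Psmb9 and Psmb8 lie in the MHC class II region beside the genes of the peptide transporter, Tap1 and Tap2, between which Psmb8 lies. Tap2, with 6422 reads against 6500, had a ratio of 1.09 (1.06 to 1.13). Tap1, with 505 against 613 reads and 2 curated transcripts, had 0.912 (0.809 to 1.03). Of 13 measured genes of antigen processing and interferon response, 0 were 1.2-fold apart, 6 intervals lay below 1 and 2 above, and the median log2 ratio was -0.08. The shares of all measured genes were 5.20% lower and 6.41% higher at that fold, and 18.3% and 17.3% for the intervals. Several genes of this list were above 100 CPM, and for genes of 100 CPM or more the interval shares were 32.1% and 26.0%. The most distant were Erap1, which trims peptides in the endoplasmic reticulum, at 0.864 (0.798 to 0.935), the chaperone gene Calr at 0.873 (0.859 to 0.888), the class I heavy chain gene H2-D1 at 0.888 (0.872 to 0.903) and the peptide-loading gene Tapbp at 1.12 (0.978 to 1.28). H2-D1 has close relatives among the class I genes, so its count is uncertain.

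Further genes of the ubiquitin-proteasome pathway lie outside the symbol pattern. Of 38 such genes, 37 had reads and 35 were measured, of which 3 were 1.2-fold lower and 0 higher, against 5.20% and 6.41% of all measured genes. Their median log2 ratio was -0.04. Of their intervals, 12 lay below 1 and 4 above, against 18.3% and 17.3%, or 32.1% and 26.0% at 100 CPM or more. The lower genes were Ufd1l, a cofactor of the segregase VCP, at 0.716 (0.583 to 0.877) on 159 against 246 reads, and the cap-bound deubiquitinases Usp14 at 0.766 (0.591 to 0.987) on 105 against 152 and Uchl5 at 0.803 (0.677 to 0.949) on 242 against 334. These 3 genes were sparsely counted, and Usp14 and Uchl5 have 3 and 2 curated transcripts. The shuttle factor gene Ubqln2 followed at 0.834 (0.776 to 0.896). Partners of the proteasome with more reads lay on both sides of 1. Txnl1, a thioredoxin-like protein bound to the cap and named after its values were seen, had 3663 against 4516 reads, at 0.898 (0.860 to 0.938). Pomp, the maturation factor of the 20S core, had 5943 against 6375 reads and 1.03 (0.996 to 1.07), and Adrm1, the ubiquitin receptor Rpn13 of the cap, 5701 against 6059 and 1.042 (1.005 to 1.080). Nfe2l1, the transcription factor that drives proteasome genes when the proteasome is inhibited, had 47 against 48 reads and 1.08 (0.709 to 1.66), with 7 curated transcripts.

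Of the members, 12 have the start site of a protein-coding gene on the opposite strand within 1000 bases, and 9 of these neighbours were measured. Of these 9, 0 were 1.2-fold apart with an interval that excludes 1, against the 5.20% lower and 6.41% higher of all measured genes. The 9 pairs follow in order of distance, with the ratio of the member first. Psmc2 and Dnajc2 start 32 bases apart, with ratios of 0.966 and 0.910. At 75 bases, Psma2 and Mrpl32 had 0.996 and 1.034, and Psmc5 and Ftsj3 0.957 and 0.880. At 76 bases, Psma7 and Ss18l1 had 0.957 and 1.021. These closest pairs lay on the same side of 1 in some cases and on opposite sides in others. Psmb1 and Tbp, 137 bases apart, had 1.08 and 0.966, and Psmd10 and Atg4a, at 179 bases, 1.04 and 0.870. Psmb9 and Tap1, at 211 bases, had 0.954 and 0.912, and Psmg2 and Cep76, at 263 bases, 0.957 and 0.942. Psme2 and Rnf31, at 595 bases, had 0.947 and 1.050. All measured neighbours are given, outside the rule for named genes.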

How the data were processed

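Per the file headers, the deposited values are raw counts of uniquely assigned reads for each gene symbol. Named in the submitters' processing notes are bcl2fastq, HTSeq and mm10, without versions. No source used here gives the aligner, annotation, strand setting or treatment of ambiguous reads. A gene unlisted in 1 library was taken as 0.

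Counts were scaled with TMM factors (edgeR 4.0.16, R 4.3.3) computed on the whole table, and a prior count of 0.5, in proportion to library size, was added in each ratio. A quasi-likelihood test could not be fitted with 1 library per genotype. A gene counts as measured from a mean of 1 CPM upwards, and a gene counts as apart at 1.2-fold with a 95% interval that excludes 1. RPKM used the union of GENCODE M21 exons (GRCm38). Promoter windows came from RefSeq (GRCm38.p6), and protein sequences were not analysed here. Scripts used Python 3.11.15, scipy 1.17.1 and pandas 2.3.3 and were tested on simulated counts. DESeq2 1.42.0 size factors, total counts and upper quartiles were alternatives.

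The members and lists were chosen with earlier results of these data known. Named are Creb1, the catalytic subunits, activators and inhibitor, the extremes of each class in level and ratio, members under 10 CPM, and up to 4 genes per further list with the largest ratios, besides Pomp, Adrm1, Nfe2l1, Tap1 and Tap2. Further members are named where a value is set beside these. A marker fixed for the cell type check is not reported here.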

Additional observations from a re-analysis of the deposited data

How the results depend on the processing

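No paired analysis was possible because there is 1 library per genotype, and for the same reason no replicate could be left out. The counts of 0 members at 1.2-fold, lower or higher, held under all 10 alternatives, including no condition on the interval. Some of these could not have raised a count of 0. They are the 1.5-fold limit and the settings that only drop members (mean of 10 CPM or more, 1 curated transcript). The median log2 ratio of the members lay between -0.06 and -0.04 over the alternatives, and that of the assembly factors, between -0.01 and 0.05, changed sign. All 250 member ratios recomputed with another scaling, prior count or depth stayed inside their intervals. The other scalings shift a log2 ratio by 0.0113 at most, less than the intervals span, so they could hardly have moved a ratio out. With upper-quartile scaling, 13 rather than 17 members had an interval below 1.

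Levels per length depended on the length. With the longest transcript, the wildtype medians were 148 RPKM for the 20S alpha subunits, 174 for the constitutive beta subunits, 49.8 for the immunoproteasome, 99.5 for the 19S base, 96.0 for the lid, 103 for the activators and 22.8 for the assembly factors. With the curated transcript, a length chosen after the data were seen, they were 170, 209, 56.9, 115, 96.1, 107 and 25.3. Psmb8 to Psmb5 (library labelled CREB KO, then wildtype) was 2.67 and 2.47 in raw reads, 1.26 and 1.16 by the longest transcript and 1.47 and 1.36 by the curated one. Psmb9 to Psmb6 was 0.359 and 0.374, 0.120 and 0.125, and 0.212 and 0.221, and Psmb10 to Psmb7 was 0.393 and 0.365, 0.854 and 0.794, and 0.348 and 0.323. Depth limits Psme2, Psmd2, Psmd10 and Psmg4, whose intervals hold 1 and reach beyond 1.2-fold.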
